A study of Mus musculus with 24 samples.

Results

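The genes described here are 10 genes of fibroblast growth factor (FGF) signalling in the mouse hippocampus. They comprise the receptors *Fgfr1*, *Fgfr2* and *Fgfr3*, the decoy receptor *Fgfrl1*, the ligands *Fgf1*, *Fgf2*, *Fgf9* and *Fgf10*, and the feedback inhibitors *Spry2* and *Spry4*. Every non-control probe whose transcript accession maps to one of these symbols was taken, and all 10 of 10 genes were found, with 20 of the 56605 probes of the arrays and among 23787 named genes. The genes were selected on the log2 ratios of corticosterone over control and the channel signals seen in an earlier analysis of the same arrays. Their differences between groups and between hours are therefore a description. No p-value is printed for these differences, and counts and names of probes past a threshold are given for orientation only.

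FGF ligands are secreted proteins that bind receptor tyrosine kinases at the cell surface together with heparan sulfate. The bound receptors signal through adaptor proteins, Ras and the MAP kinase cascade, and the cascade induces its own inhibitors, among them the Sprouty proteins. In the adult brain, FGF ligands and receptors are known for roles in astrocytes, in neurogenesis and in the survival and connections of neurons.

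The study followed gene expression in the hippocampus during the resting period after a night of corticosterone, the main glucocorticoid of mice. The animals were 48 Swiss-Webster male mice, 12 weeks of age. The corticosterone-treated animals received 100 µg/ml corticosterone with 0.45% hydroxypropyl-β-cyclodextrin in the drinking water over the 12 h dark phase, and the control animals received water with 0.45% of this vehicle alone. Both groups were sampled in the light phase, within the first hour, the fifth or the ninth, with 8 animals in each of the 6 groups. Per the study's methods, the controls were siblings of the treated animals, and each group came from fewer litters than its 8 animals here. Some animals counted as separate replicates were therefore brothers. The labels do not tie an animal to its litter, so the SEs and p-values treat the 8 animals of a group as independent.

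Each of the 24 arrays compared 1 control animal, labelled with Cy3, with 1 corticosterone-treated animal, labelled with Cy5, and the dyes were not exchanged on any array. A constant dye bias of a probe therefore sits in every ratio of corticosterone over control and cancels only in the change of the ratio between hours. The arrays lay on 3 slides that each held arrays of all 3 hours. Between 57.9 and 64.2% of the spots in the Cy3 channel and between 61.0 and 70.4% in the Cy5 channel were well above background, and the number of arrays limits the precision. All 6 neuronal markers and all 3 markers of hippocampal fields were well above background in at least 24 of the 48 channels. In bulk tissue, fewer cells of a type and less RNA per cell cannot be told apart.

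The promoters of the 2 receptor genes that moved most are shown because *Fgfrl1* and *Fgfr3* went in opposite directions. Each sequence holds the 250 bases before an annotated start, 5′ to 3′ on the strand of the gene (RefSeq, GRCm38.p6). The table holds a further *Fgfr3* start, with its window at chr5:33722056-33722305, of which the sequence is not shown. Capitals mark an E-box, CACGTG, the letters bound by clock transcription factors among others.
*Fgfrl1*, chr5:108693979-108694228, plus strand: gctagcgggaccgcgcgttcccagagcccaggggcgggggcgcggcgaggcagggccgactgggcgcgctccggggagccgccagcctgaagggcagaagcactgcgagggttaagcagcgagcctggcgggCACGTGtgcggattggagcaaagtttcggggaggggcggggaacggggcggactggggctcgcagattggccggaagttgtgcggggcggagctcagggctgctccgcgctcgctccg
*Fgfr3*, chr5:33721474-33721723, plus strand: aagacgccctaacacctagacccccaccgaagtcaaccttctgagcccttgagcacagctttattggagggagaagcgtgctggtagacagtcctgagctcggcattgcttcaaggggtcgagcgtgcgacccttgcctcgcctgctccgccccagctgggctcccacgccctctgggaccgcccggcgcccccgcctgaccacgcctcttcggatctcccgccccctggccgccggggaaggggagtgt
Both strands were searched for the glucocorticoid response element (AGAACA, any 3 bases, TGTTCT), for the short motif TGTTCT, which this element contains, and for the E-box. Of 10 genes, 7 had a promoter in the table, and of these only *Fgfrl1* held a match, with the E-box starting 118 bases before the start. Of all 32851 promoters of the table, 0.00913% held the full element, 16.1% the short motif and 6.02% the E-box in the same window. A match is a description of the letters and no evidence of binding.

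The largest difference among the 10 genes was that of *Fgfrl1*, which had a lower signal in treated animals during the first hour and a higher one by the ninth. *Fgfrl1* encodes a receptor-like protein that binds FGF ligands but lacks the intracellular kinase domain. During the first hour, its normalized signal ranged from 1886 to 2341 (median 2088, n = 8) in control animals. In treated animals it ranged from 1132 to 1809 (median 1170, n = 8), so that all treated animals lay below all control animals. The difference was 38.7% (log2 fold change -0.71, SE 0.0662), and the ratio was below 0 on 8 of 8 arrays. The treated animals with the highest signals were those at 1528 and 1809, and the other 6 lay between 1132 and 1221.

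During the fifth hour, *Fgfrl1* ranged from 1882 to 2482 (median 2177) in control and from 1419 to 1989 (median 1759) in corticosterone-treated animals. The groups overlapped, and the treated animal was lower on 7 of 8 arrays (log2 fold change -0.30, SE 0.0662). During the ninth hour, control animals ranged from 1881 to 2219 (median 2028), and corticosterone-treated animals from 2230 to 2588 (median 2353). All treated animals then lay above all control animals (log2 fold change 0.22, SE 0.0662, 8 of 8 arrays). From the first to the ninth hour the log2 ratio rose by 0.92 (SE 0.0937), a quantity in which a constant dye bias cancels. Within slides, the mean log2 ratio of the first hour was -0.61, -0.68 and -0.80 on slides 1, 2 and 3, and that of the ninth hour was 0.25, 0.20 and 0.15. The fifth-hour means were uneven, at -0.56, -0.12 and -0.31. Under 17 alternatives of the processing, which include leaving out each slide, the fifth-hour difference lay between -0.41 and -0.21 and the ninth-hour difference between 0.18 and 0.24. *Fgfrl1* had only 1 probe, so no other probe could be set beside it.

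**Figure D1:**
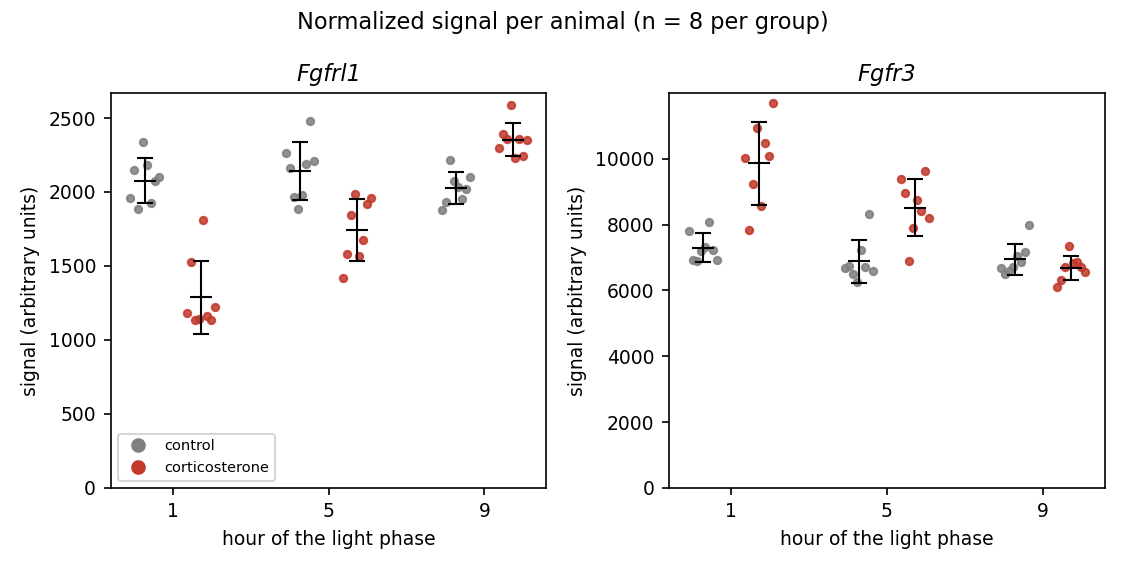
Normalized signal in arbitrary units of *Fgfrl1* and of the brightest *Fgfr3* probe against the hour of the light phase; each point is 1 animal, grey for control and red for corticosterone-treated, and black bars give the mean and SD of 8 animals. *Fgfrl1* lay at or below 1809 in treated animals during the first hour and at or above 2230 during the ninth, while *Fgfr3* was raised during the first and the fifth hour and overlapped with the control animals during the ninth.

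Among the tyrosine kinase receptors, *Fgfr3* was the one with a clear difference, and it was higher in corticosterone-treated animals during the first and the fifth hour. *Fgfr3* encodes a receptor that is known for its expression in astrocytes and their precursors. Its brightest probe ranged from 6883 to 8078 (median 7212) in control and from 7840 to 11709 (median 10059) in treated animals, both at the first hour. Only the lowest treated animal fell within the control range (log2 fold change 0.43, SE 0.0566, or 34.3% higher, 8 of 8 arrays). During the fifth hour, the control range was 6244 to 8329 (median 6701) and the treated range 6897 to 9634 (median 8585). The treated animal was again higher on 8 of 8 arrays, with a smaller difference of 0.31 (SE 0.0566) on the log2 scale. During the ninth hour the ranges were 6508 to 7981 and 6097 to 7347, with a log2 fold change of -0.05 (SE 0.0566) and the treated animal higher on 3 of 8 arrays. The log2 ratio thus fell by 0.48 (SE 0.0800) from the first to the ninth hour and by 0.36 (SE 0.0800) from the fifth to the ninth.

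The dimmer *Fgfr3* probe gave the same course. Its signal ranged from 152 to 218 in control and from 219 to 312 in treated animals during the first hour, without overlap (log2 fold change 0.58, SE 0.0847). The fold change was 0.33 (SE 0.0847) at the fifth hour and 0.01 (SE 0.0847) at the ninth. Across the 24 arrays, the log2 ratios of the *Fgfr3* probes had a Pearson correlation of 0.69. Within slides, the brightest probe had first-hour means of 0.27, 0.42 and 0.54 on slides 1, 2 and 3.

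The ratios of *Fgfrl1* and *Fgfr3* ran against each other over the 24 arrays. Pearson's correlation of their log2 ratios was -0.85, and it was -0.52 after the mean of each hour was taken out. The points share the hours, the slides and the 2 animals of each array, so the value is a description. Among the other members, the correlation with *Fgfrl1* was 0.65 for *Spry2*, 0.39 for *Fgf10* and 0.32 for *Fgfr2*, and between -0.08 and 0.22 for the remaining 5. With the hour means taken out, it was 0.39 for *Spry2*, 0.08 for *Fgf10* and -0.01 for *Fgfr2*.

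**Figure D2:**
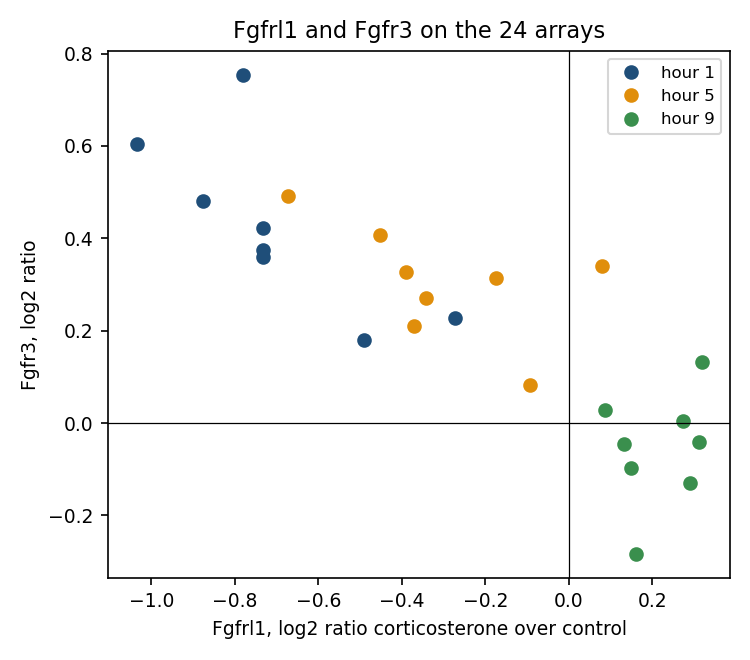
Log2 ratio of corticosterone over control of *Fgfr3* (brightest probe, vertical axis) against that of *Fgfrl1* (horizontal axis), 1 point per array, coloured by the hour of the light phase. The first-hour arrays lie at the upper left and the ninth-hour arrays at the lower right, and the fifth-hour arrays are partly mixed with those of the first hour (Pearson's correlation -0.85 over 24 arrays).

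*Fgfr1*, a receptor expressed by many neurons, showed little difference by its brightest probe. That probe ranged from 4673 to 5604 in control and from 4786 to 6529 in treated animals during the first hour, and the log2 fold changes were 0.08, 0.08 and 0.06 (SE 0.0553 each) at the 3 hours in order. Its 3 other probes had first-hour values of 0.23 (SE 0.0812, treated animals from 212 to 327 against 212 to 263), 0.05 and 0.16. Under the alternatives, the first of these lay between 0.15 and 0.30. Over the 24 arrays, the log2 ratios of these 3 probes correlated at 0.03, 0.40 and -0.20 with those of the brightest *Fgfr1* probe. *Fgfr2*, a receptor known from glia and epithelia, was slightly lower in treated animals by its brightest probe. The log2 fold changes of this probe were -0.15, -0.16 and -0.01 (SE 0.0593 each), and the treated animal was lower on 7, 8 and 2 of 8 arrays. During the fifth hour, its range was 188 to 246 in control and 151 to 224 in treated animals, which overlapped, and the difference lay between -0.22 and -0.06 under the alternatives. Within slides, the fifth-hour means of this probe were uneven, at -0.05, -0.33 and -0.07 on slides 1, 2 and 3. The dimmer *Fgfr2* probe had log2 fold changes of -0.22, -0.15 and 0.10 (SE 0.0866 each), and with the processed signals of the scanner software these were -0.49, -0.31 and -0.01.

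Of the ligands, *Fgf1* was higher in corticosterone-treated animals at all 3 hours by its brightest probe. *Fgf1* encodes acidic FGF, a ligand that binds all FGF receptors. During the first hour, this probe ranged from 3347 to 4051 (median 3659) in control and from 4018 to 5613 (median 4473) in treated animals. Only the lowest treated animal and the highest control animal overlapped. The ranges were 3109 to 4412 and 3952 to 5418 during the fifth hour, and 3123 to 3936 and 3892 to 4446 during the ninth. The log2 fold changes were 0.31, 0.28 and 0.28 (SE 0.0509 each), with all 8 arrays above 0 each time. In contrast to *Fgfrl1* and *Fgfr3*, its ratio changed by only -0.03 (SE 0.0720) from the first to the ninth hour, and a constant dye bias cannot be told apart from a lasting difference. Of the other *Fgf1* probes, 1 had log2 fold changes of 0.17, 0.19 and 0.12 (SE 0.0880 each), with the treated animal higher on 6, 5 and 5 of 8 arrays. It was past the threshold at no hour, and its log2 ratios had a correlation of -0.09 with those of the brightest probe over the 24 arrays. The dimmest was well above background on only 3 or 4 of 8 control channels at each hour, so that its fold changes are not interpreted.

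*Fgf10*, a ligand that signals mainly through a splice form of *Fgfr2*, gave discordant results between its probes. The brighter probe ranged from 1028 to 1471 in control and from 1095 to 1395 in treated animals during the first hour, and its log2 fold changes were -0.00, 0.07 and 0.14 (SE 0.0625 each). The dimmer probe was lower in treated animals on 8 of 8 arrays at each hour. It ranged from 61.1 to 83.7 in control and from 37.9 to 55.7 in treated animals during the fifth hour, without overlap, and its log2 fold changes were -0.45, -0.56 and -0.31 (SE 0.0858 each). With an offset of 50 added to the signals, these became -0.23, -0.29 and -0.16. Both probes carry the same transcript accession, and the correlation of their log2 ratios over the 24 arrays was 0.53.

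*Fgf9*, a ligand made by neurons and glia, and *Fgf2*, basic FGF, showed little difference or a signal too low to read one. *Fgf9* ranged from 1846 to 2134 in control and from 1744 to 2537 in treated animals during the first hour, and its log2 fold changes were -0.03, -0.01 and 0.01 (SE 0.0572 each). *Fgf2* lay close to background: its brighter probe was well above background on 3 to 5 of 8 control and 6 to 8 of 8 treated channels at each hour, with signals between 23.3 and 53.4. The dimmer *Fgf2* probe was well above background on at most 4 of 8 channels of a group. Its fold changes are therefore not interpreted.

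The Sprouty genes encode cytoplasmic proteins that are induced by FGF signalling and dampen it. *Spry2* ranged from 1627 to 2300 (median 1870) in control and from 1412 to 1768 (median 1658) in treated animals during the first hour, with overlap. Its log2 fold changes were -0.23, -0.09 and 0.09 (SE 0.0728 each), so that it followed *Fgfrl1* in sign at each hour, and the treated animal was lower on 7 of 8 arrays during the first hour. The first-hour difference lay between -0.30 and -0.15 under the alternatives, and on slide 1 the mean ratio was -0.03. The dimmer *Spry2* probe had log2 fold changes of -0.07, -0.11 and 0.13 (SE 0.0884 each).

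*Spry4* showed log2 fold changes of -0.07, -0.03 and -0.01 (SE 0.149 each). On 1 array of the fifth hour, its only probe was dim in both channels, at 47.9 and 30.1 against 101 or more in control and 111 or more in treated animals of the other 7. Without this array, the mean log2 ratio of the fifth hour was 0.06 instead of -0.03.

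**Figure D3:**
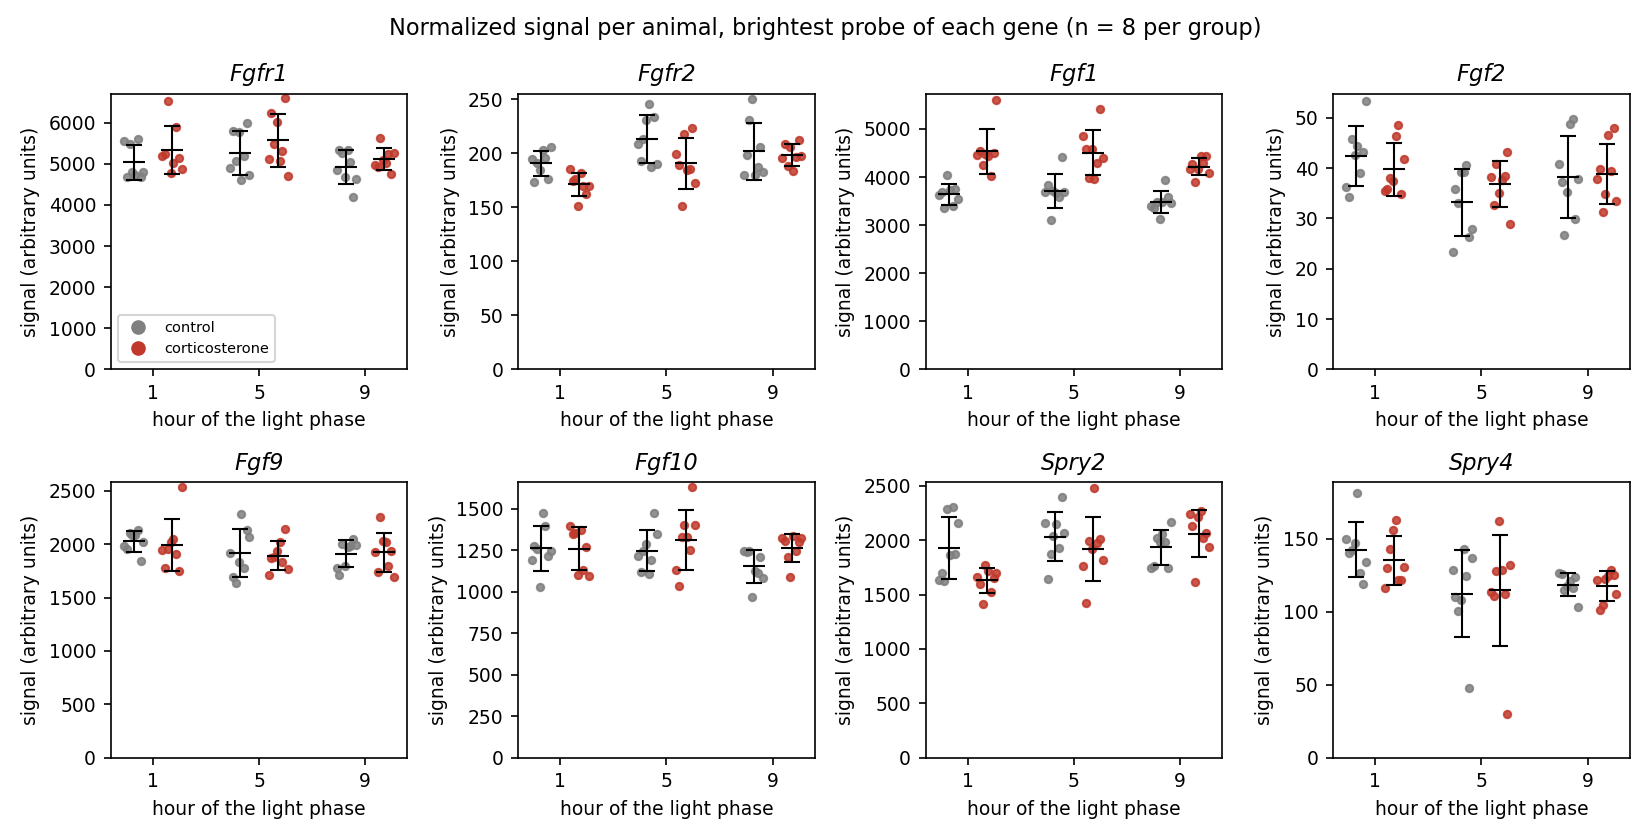
Normalized signal in arbitrary units of the brightest probe of the other 8 genes against the hour of the light phase; each point is 1 animal, grey for control and red for corticosterone-treated, and black bars give the mean and SD of 8 animals. *Fgf1* was higher in treated animals at each hour, and the array with the dim *Spry4* spot shows as the lowest point of both groups during the fifth hour.

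In all, 7 of the 20 probes differed with an adjusted p under 0.05 at the first hour, 6 at the fifth and 3 at the ninth. Over all probes of the arrays, 17.5, 18.1 and 13.9% did so at these hours. Without slide 1, the ninth-hour count of the 20 probes was 0. During the first hour 4 probes were higher (*Fgf1*, *Fgfr1* and both of *Fgfr3*) and 3 lower (*Fgfrl1*, *Fgf10* and *Spry2*), against 8.79 and 8.74% of all probes. During the fifth hour 3 were higher and 3 lower, against 8.64 and 9.5%, and during the ninth hour 2 were higher and 1 lower, against 6.97 and 6.93%. The groups did not overlap for 2, 1 and 1 of the 20 probes, against 1.57, 0.98 and 1.64% of all probes. The ratio of the ninth hour differed from that of the first past the threshold for 3 of the 20 probes, against 0.829% of all probes, and from that of the fifth for 2, against 0.0813%. Of the 20, 0 did so from the first to the fifth hour (0.0389% of all probes; 2 probes at an unadjusted p under 0.05). These contrasts chose the genes, and the shares are given for orientation only. The median log2 fold change of the 20 probes was -0.02, -0.02 and 0.03, and that of all probes was 0.00 at each hour.

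**Figure D4:**
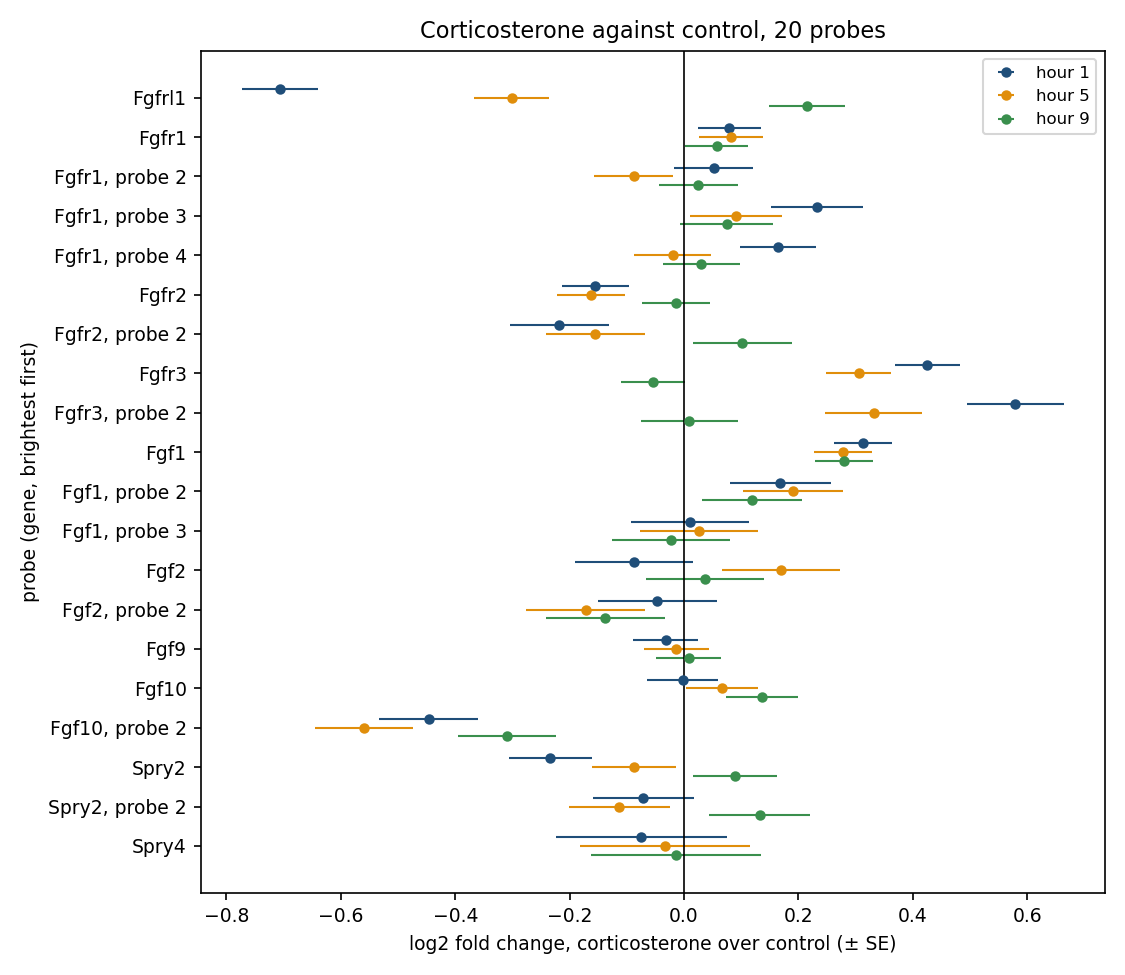
Log2 fold change of corticosterone over control, with SE, for the 20 probes (vertical axis, brightest probe of each gene first) at the 3 hours. *Fgfrl1* runs from -0.71 to 0.22 between the first and the ninth hour, both *Fgfr3* probes return to about 0, and the *Fgf10* probes differ in sign during the fifth and the ninth hour.

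The signals of the control animals are among the values that chose the genes, so their differences between hours are a description as well, and the counts are given for orientation only. By the separate channel test of limma in control animals, the counts of the 20 probes at an adjusted p under 0.05 were 0 for the fifth against the first, 0 for the ninth against the first and 0 for the ninth against the fifth hour, where 0.0053, 0.516 and 0.0318% of all probes passed. At an unadjusted p under 0.05 the counts were 3, 1 and 0. *Fgfrl1* had log2 differences of 0.04 for the fifth and -0.03 for the ninth against the first hour in control animals, with SE 0.0776. The brightest *Fgfr3* probe had -0.09 and -0.07, with SE 0.0663. The 3 probes at an unadjusted p under 0.05 in the first of these comparisons were those of *Spry4* (-0.40), *Fgfr2* (0.16) and *Fgf2*, which was well above background in 5 and 3 of 8 control animals and gets no value here, and the probe in the next comparison was a dimmer one of *Fgfr1* (0.17). The dim *Spry4* array enters here, and without it the difference of the mean log2 signals of *Spry4* was -0.23. In corticosterone-treated animals, *Fgfrl1* rose by 0.89 (SE 0.0776) and *Fgfr3* fell by 0.55 (SE 0.0663) on the log2 scale from the first to the ninth hour.

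Of the other genes of FGF signalling, 59 genes were measured with 90 probes, and their list, like the 10 genes, was drawn up with earlier results of these data known, so their p-values are no independent support. By the brightest probe, 10 genes passed the test during the first hour (7 higher, 3 lower), 13 during the fifth (11 higher, 2 lower) and 14 during the ninth (8 higher, 6 lower). These were 16.9, 22 and 23.7% of the genes, beside 17.5, 18.1 and 13.9% of all probes, and their median log2 fold change was 0.04, 0.03 and 0.04. Of the 90 probes, 15, 17 and 16 passed. Without slide 1, 2 or 3 the count was 8, 7 and 9 for the first hour and 5, 10 and 9 for the ninth, and it was 8 and 11 for the fifth hour without slides 1 and 3. Under all 17 alternatives of the processing, 3 of the 10 genes stayed past the threshold for the first hour (*Fgf11*, *Grb2* and *Hras*), 4 of the 13 for the fifth (the same 3 and *Spry3*) and 2 of the 14 for the ninth (*Etv4* and *Hs6st1*).

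Of the 4 intracellular FGF homologous factors, which bind sodium channels and are not secreted, 2 were lower at the first, 1 at the fifth and 2 at the ninth hour and 0 were higher, where 8.74, 9.5 and 6.93% of all probes were lower. *Fgf11* was lower at each hour, by 30.8% during the first (log2 fold change -0.53, SE 0.0688, adjusted p = 5.9e-08, 8 of 8 arrays), and by -0.42 and -0.27 on the log2 scale later (adjusted p = 7e-06 and 0.0036). Without slide 3, its ninth-hour value was -0.20 and did not pass the test. *Fgf11* ranged from 3071 to 3988 in control and from 1850 to 2622 in treated animals during the first hour, without overlap. The other *Fgf11* probes differed from it: 1 had -0.21, -0.05 and 0.06 (SE 0.0635) and passed the test only during the first hour (adjusted p = 0.013; not without slide 1 or slide 3), and the dimmest had 0.10, 0.04 and 0.17 (SE 0.0809) and did not pass. The other called genes were *Fgf14* during the first hour (-0.15, adjusted p = 0.036), not past the threshold without slide 2 or slide 3, and *Fgf12* during the ninth (-0.18, adjusted p = 0.049), lost under 7 of 17 alternatives.

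Of 18 adaptors and members of the Ras and MAP kinase cascade, 4 passed the test during the first hour, 4 during the fifth and 6 during the ninth, where 17.5, 18.1 and 13.9% of all probes did. They were 4 higher during the first hour, 3 higher and 1 lower during the fifth, and 3 higher and 3 lower during the ninth. *Grb2*, the adaptor that brings the Ras activator Sos to the receptor, was higher by 0.21, 0.17 and 0.13 (SE 0.0408; adjusted p = 7.4e-05, 0.00068 and 0.011). *Hras*, a Ras GTPase, was higher by 0.25, 0.25 and 0.18 (SE 0.0482; adjusted p = 8.9e-05, 8.8e-05 and 0.0055), and the docking protein *Frs3* by 0.23, 0.17 and 0.15 (SE 0.0510; adjusted p = 0.00075, 0.011 and 0.026). In contrast, *Nras* was lower during the fifth and the ninth hour (-0.19 and -0.17, adjusted p = 0.0099 and 0.025), calls lost under 2 and 5 of 17 alternatives. Its dimmer probe was lower at each hour (-0.25, -0.22 and -0.15, adjusted p = 7.3e-05, 0.00033 and 0.020), and the ninth-hour call was lost under 3 of 17 alternatives. *Ptpn11*, a phosphatase needed for signalling, was raised during the first hour by its brightest probe (0.14, adjusted p = 0.0094; not without slide 1), while its dimmer probe had -0.10 at that hour and was lower during the ninth (-0.17, adjusted p = 0.025), a call lost with the authors' ratios and without slide 1, where the value was -0.08. *Braf* was lower during the ninth hour (-0.12, adjusted p = 0.032), as was *Cbl*, which marks receptors for degradation (-0.19, adjusted p = 0.036), and each of these calls was lost under 4 of 17 alternatives. The dimmer *Cbl* probe went the other way during the ninth hour without passing the test (adjusted p = 0.14). It was well above background in 0 control and 4 treated animals, so no fold change is given. The calls of *Frs3* were lost under 1, 2 and 4 of 17 alternatives at the 3 hours, and the ninth-hour calls of *Grb2* and *Hras* under 3 and 1.

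Of the 7 feedback inhibitors outside the 10 genes, 2 were higher at the first, 3 at the fifth and 2 at the ninth hour and 0 were lower, where 8.79, 8.64 and 6.97% of all probes were higher. *Spry3* was higher during the first and the fifth hour (0.19 and 0.33, SE 0.0679; adjusted p = 0.031 and 0.00028), *Spred1* at each hour (0.15, 0.18 and 0.15, SE 0.0440; adjusted p = 0.0081, 0.0013 and 0.0095), and *Il17rd*, which encodes the inhibitor Sef, during the fifth and the ninth hour (0.22 and 0.31, SE 0.0688; adjusted p = 0.016 and 0.0012). The first-hour call of *Spry3* was lost under 3 of 17 alternatives, and those of *Spred1* and *Il17rd* under 1 or 2 each. The dimmer *Spred1* probe did not pass the test, with -0.03, -0.15 and -0.04. *Dusp6*, a phosphatase of the MAP kinase Erk, had values of 0.09, 0.11 and 0.06 that did not pass the test.

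Of the 3 Ets factors of the list, known transcriptional targets of FGF signalling, 1, 2 and 2 were higher at the 3 hours and 0 lower, where 8.79, 8.64 and 6.97% of all probes were higher. *Etv1* was not called, at -0.07, -0.08 and -0.06 (SE 0.0518). *Etv4* had a log2 fold change of -0.12 during the first hour and was higher during the fifth (0.24, adjusted p = 0.0019; not without slide 1 or slide 3) and ninth (0.39, adjusted p = 5.4e-06). Its signal during the ninth hour ranged from 157 to 194 in control and from 214 to 255 in treated animals, without overlap. Between the first and the ninth hour its ratio rose by 0.51 (SE 0.0837, adjusted p = 7.4e-05; not past the threshold without slide 1). *Etv5* was higher by 0.13, 0.13 and 0.16 at the 3 hours (SE 0.0489; adjusted p = 0.048, 0.039 and 0.011), and these calls were lost under 9, 6 and 1 of 17 alternatives.

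Among the ligands outside the 10 genes, 0, 3 and 1 of 14 were called at the 3 hours, where 17.5, 18.1 and 13.9% of all probes were, and only 7 of the 14 were well above background in at least 24 of the 48 channels. *Fgf17* was not well above background in control animals on any array. It was well above it in only 1 and 2 treated animals during the fifth and the ninth hour, so no fold change is given. It was called higher at these hours (adjusted p = 0.0059 and 0.027), and these calls were lost under 1 and 5 of the 15 alternatives that kept the probe. *Fgf23*, with a mean signal of 22980, was higher during the fifth hour (0.25, SE 0.0917, adjusted p = 0.036), as was *Fgf7* (0.25, SE 0.0838, adjusted p = 0.038), and these calls were lost under 3 and 4 of 17 alternatives. Whether the very bright *Fgf23* probe also reads other transcripts was not tested, since no probe sequences were used here. Of the coreceptors and the receptor *Fgfr4*, 0 of 3 were called. Of 10 extracellular modifiers, *Fgfbp3*, a carrier of FGF ligands, was lower during the first hour (-0.19, adjusted p = 0.028; lost under 5 of 17 alternatives), and *Hs6st1*, which sulfates heparan sulfate, during the ninth (-0.27, SE 0.0460, adjusted p = 1.8e-05). The ratio of *Hs6st1* fell by 0.25 (SE 0.0651, adjusted p = 0.019; not past the threshold without any 1 slide) from the first to the ninth hour. *Etv4* and *Hs6st1* were the 2 pathway probes that passed this test of the change between the first and the ninth hour, 2 of 90 against 0.829% of all probes (0, 1 and 1 without slides 1, 2 and 3). No pathway probe did from the first to the fifth or from the fifth to the ninth hour, where 0.0389 and 0.0813% of all probes did (1 and 5 of the 90 at an unadjusted p under 0.05).

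**Figure D5:**
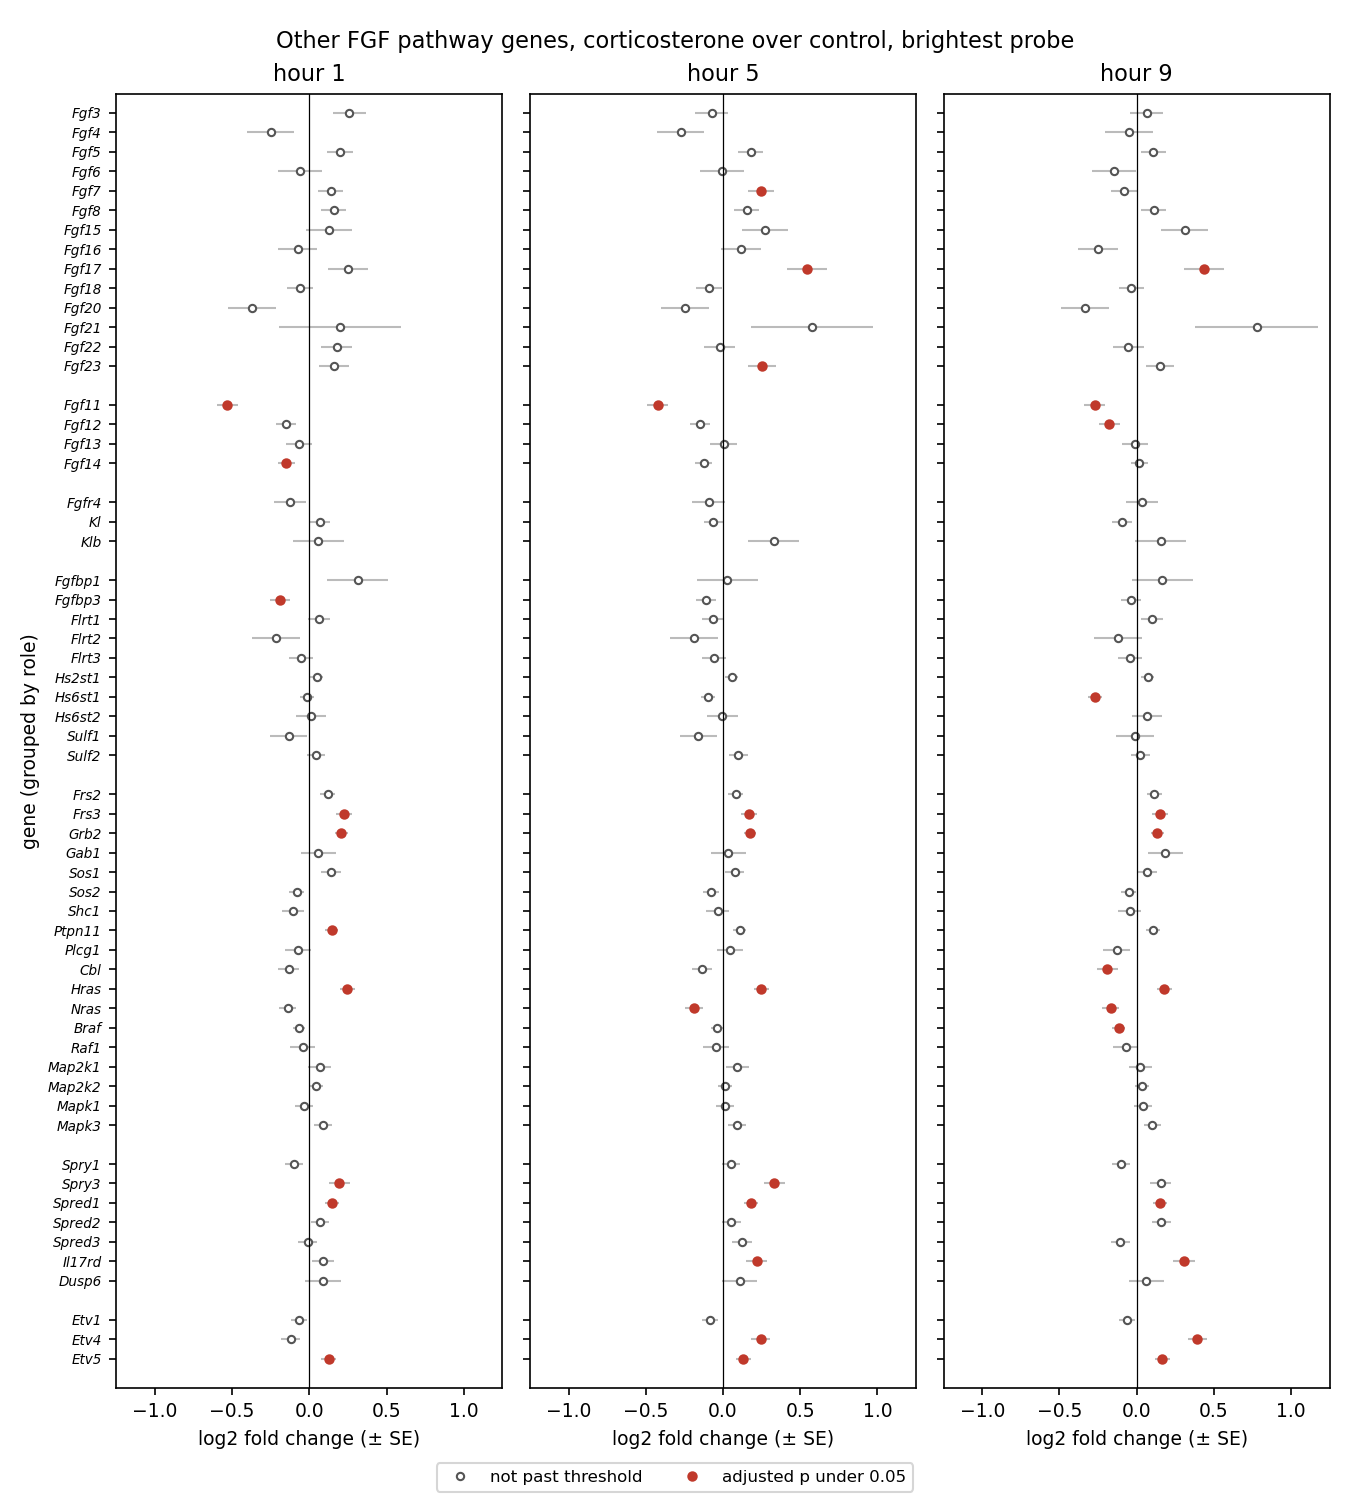
Log2 fold change of corticosterone over control, with SE, for the brightest probe of each of the 59 other FGF pathway genes (vertical axis, grouped by role) at the 3 hours; filled red points have an adjusted p under 0.05. *Fgf11* is lower at each hour, while *Etv4* and *Il17rd* are raised during the fifth and the ninth.

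Markers of several cell types differed between the groups as well, where 8.79, 8.64 and 6.97% of all probes were higher and 8.74, 9.5 and 6.93% lower at the 3 hours. Of 7 markers of endothelial and mural cells, 4 were lower (*Cldn5*, *Flt1*, *Tek* and *Rgs5*) and 1 higher during the first hour, and their summed signal ranged from 11028 to 13357 in control and from 8009 to 10133 in treated animals, without overlap. During the fifth hour 1 was higher and 3 lower, and the sums, 10805 to 13602 and 9210 to 10953, overlapped. During the ninth hour 1 was higher and 2 lower, and the sums, 10098 to 12389 and 9576 to 10950, overlapped. Of 7 astrocyte markers, *Aldh1l1* was higher (0.57) and *Aqp4* lower (-0.76) during the first hour, with sums from 45306 to 49396 and from 46314 to 57154. At the fifth hour, 3 astrocyte markers were lower and 1 higher, with sums from 44913 to 51641 and from 44953 to 48299, and during the ninth 1 was higher and 2 lower. Of 6 microglial markers, 3 were lower during the first hour (*Cx3cr1*, *Aif1* and *P2ry12*), 2 during the fifth and 1 during the ninth. Of 6 oligodendrocyte markers, 2 were higher and 2 lower at each hour. Of 6 neuronal markers, 1 was lower during the first hour, 2 were higher during the fifth and 1 during the ninth. Of 3 markers of oligodendrocyte precursors, 1 was lower during the ninth hour. No marker of choroid plexus or of hippocampal fields passed the test at any hour. The part of these shifts in the values of *Fgfrl1* and *Fgfr3* was not tested.

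The 8 genes whose log2 ratio over the 24 arrays was most like that of *Fgfrl1*, among probes with a mean signal of 50 or more, were *Tmem109*, *Meox1*, *Pnp*, *Tnfrsf19*, *Mid1ip1*, *Impa2*, *Cdc42ep1* and *Fzd9*, with Pearson's correlations from 0.89 to 0.84. After the mean of each hour was taken out, the correlations were between 0.35 and 0.73. All 8 had a lower ratio during the first than during the ninth hour. They were picked for likeness to *Fgfrl1*, whose ratio rose between these hours, so this shared rise is no further result. *Cdc42ep1* had log2 fold changes of -0.50, -0.03 and 0.20, and *Meox1* of -0.39, 0.07 and 0.44. The changes were smaller for *Tmem109*, the gene with the highest correlation, at -0.11, -0.06 and 0.08. *Mid1ip1* had -0.31, -0.17 and -0.01 and was thus not higher during the ninth hour. The arrays share their slides and hours, and the correlation is a description over 24 points.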

How the data were processed

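Total RNA of single hippocampi was hybridized on Agilent 2-colour arrays. Per the labels and the methods, the authors scanned the arrays on an Agilent scanner, extracted the data with the Feature Extraction software (10.7.3.1 in the file headers) and deposited for both channels a median intensity per spot with its local background; a further deposited table holds the authors' log2 ratios, which served as an alternative only, and which of the methods' steps (normexp, loess, quantile) it holds is not given in the sources used here. Its columns correlated with the computed log2 ratios at 0.795 to 0.860, across probes.

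R 4.3.3 was used, with the packages limma 3.58.1, statmod 1.5.0 and, for reading files, the data.table package (version 1.17.8). The normexp background correction added 50 to the intensities where p-values were taken and 0 where fold changes, SEs and signals were, followed by loess within and quantile normalization between arrays, with 3671 control spots at weight 0 in the loess and then left out, outlier spots missing and copies of a probe averaged. No member probe was missing on an array. By limma's test of separate channels, 1 model covered the 6 groups in 48 channels (intraspot correlation 0.286), with Benjamini-Hochberg adjustment over 56605 probes and a threshold of 0.05. P-values rest on the spread between channels, each from 1 animal, in which differences between animals and those of the measurement are not separated. Of the probes, 34566 were named by a match of their transcript accession to RefSeq (GRCm38.p6). Replicate numbers carried no label. Figures and motif searches used Python 3.11.15 and matplotlib 3.10.9.

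Named are all 20 member probes, led by the brightest probe of a gene, at each hour up to 12 pathway genes with the smallest adjusted p by their brightest probe, pathway genes whose effect changed between hours, and the 8 genes most like *Fgfrl1*. Other genes appear only in counts, apart from *Dusp6*, *Cbl*, *Fgf12*, *Etv1* and the markers, named after their values were seen, as were further probes of a named gene. Another gene of the pathway list is not reported here. The members and lists were chosen with earlier results of these data known. The separate channel test and its adjustment, but not the background correction and normalization, were run on simulated data. In these, 200 of 56605 probes changed in each comparison, with no dye bias and no litters. There, 93.5% of changes were found for the first hour and 89.5% for the ninth against the first hour in control animals, and 2.6 and 3.76% of the calls made were false. In the first-hour data 17.5% of all probes were called, so these rates need not hold for them. The alternatives were 17 other settings of offset, background, normalization, filter, test, slide and outlier spots.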

Additional observations from a re-analysis of the deposited data

Results flagged for a closer look

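In 6 of 60 groups of 8 animals (brightest probe of each of the 10 genes), the highest or lowest animal lay apart from the others by Dixon's test, where chance marks about 1 in 20 groups. *Fgfrl1* reached 2588 in 1 corticosterone-treated animal of the ninth hour, with the next at 2395. *Fgfr3* reached 7981 in 1 control animal of the ninth hour, with the next at 7179. During the first hour, 1 treated animal had 5613 for *Fgf1*, with the next at 4538, and 1 had 2537 for *Fgf9*, with the next at 2047. *Spry4* was at 47.9 in 1 control and 30.1 in 1 treated animal of the fifth hour, against the nearest values of 101 and 111, and both values came from the same spot of 1 array.

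The difference between corticosterone-treated and control animals changed between hours for 3 member probes, given without p-values since these ratios chose the genes. The log2 ratio of *Fgfrl1* rose by 0.92 from the first and by 0.52 from the fifth to the ninth hour. That of the brightest *Fgfr3* probe changed by -0.48 and -0.36, and that of the dimmer *Fgfr3* probe by -0.57 from the first to the ninth hour. Among the other pathway genes, the ratio of *Hs6st1* changed by -0.25 (limma, adjusted p = 0.0187) and that of *Etv4* by 0.51 (limma, adjusted p = 7.4e-05) from the first to the ninth hour. The change of *Hs6st1* missed the threshold without any 1 slide, and that of *Etv4* missed it without slide 1.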

How the results depend on the processing

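Under the 17 alternatives, 5 to 10 of the 20 member probes were called during the first hour, 4 to 7 during the fifth and 0 to 4 during the ninth, against 7, 6 and 3. Leaving out a slide removes 8 of the 24 arrays, and only these settings moved a count by over 1.5 times. The ninth-hour count of member probes was 0 without slide 1, which holds 4 of the 8 ninth-hour arrays. The pathway count of the first hour (15) was 8, 7 and 9 without slides 1, 2 and 3, that of the fifth hour (17) was 8 and 11 without slides 1 and 3, and that of the ninth hour (16) was 5, 10 and 9. For the change of the ratio, the pathway count from the first to the fifth hour (0) was 1 without slide 2, and that from the first to the ninth (2) was 0, 1 and 1. In control animals, 0 member probes were called under each alternative that could be run there. No called difference of corticosterone over control printed for a member or pathway gene changed its sign; the cell type markers were not run under the alternatives. Among the member probes counted, the fifth-hour difference of *Fgfrl1* missed the threshold without slide 1 and that of the dimmer *Fgfr3* probe without slide 3, and the ninth-hour differences of *Fgfrl1*, *Fgf1* and the dimmer *Fgf10* probe without slide 1, that of *Fgfrl1* also without slide 3. The first-hour count lost a dimmer *Fgfr1* probe without slide 1 or 2 and *Spry2* without slide 2 or 3, and the fifth-hour count lost *Fgfr2* under 6 alternatives. The change of the *Fgfrl1* ratio from the fifth to the ninth hour missed it without slide 1 or 3, that of the brightest *Fgfr3* probe without any 1 slide or with an offset of 0, and its change from the first hour without slide 3. The change of the dimmer *Fgfr3* probe from the first to the ninth hour missed it without slide 2 or 3. Slide as a block changed no count by over 1.5 times.

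The difference of the dimmer *Fgf10* probe was -0.23 instead of -0.45 during the first hour with an offset of 50 and with the authors' ratios. During the fifth hour it was -0.29 with this offset, -0.28 with these ratios and -0.33 with no background correction, instead of -0.56. During the ninth hour it was -0.16 with the offset and with the ratios, instead of -0.31. That of the dimmer *Fgfr2* probe was -0.49 instead of -0.22 during the first hour with the scanner software's processed signals. Each array pairs 1 control with 1 treated animal. The test on the arrays' log ratios, which is paired by array, called 7, 6 and 3 member probes and 17, 18 and 16 pathway probes. Replicate numbers were given in accession order and pair nothing further, and litters were not given in the labels. Alternatives that apply to ratios of corticosterone over control only were not run in control animals. The setting without the dim *Spry4* array was chosen after seeing the data. Probes of 1 gene can read different transcripts, and no probe sequences were used here.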
